A study of Mus musculus with 12 samples.

Results

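The comparison described here sets the kidneys of healthy Gne knock-in mice against those of wild-type mice. Its members are 8 of the 12 libraries of the series, 4 from each group, and every gene with enough counts to be tested, 15589 of 39171. Each library came from the kidney of a separate male mouse of up to 3 months of age. The knock-in mice carried the M743T substitution in both copies of Gne and were classed as healthy by the submitters. Wild-type mice were the controls. The other 4 libraries came from mice of the same M743T/M743T genotype that were classed as sick, and their values are given only beside those of the healthy mice. What separated healthy from sick mice, the strain background and whether the 2 genotypes were littermates are details that the labels do not state. The groups therefore differ in genotype and in anything that goes with it in these colonies.

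Gne encodes the bifunctional enzyme that starts sialic acid synthesis, an epimerase that converts UDP-N-acetylglucosamine followed by a kinase that phosphorylates N-acetylmannosamine. In people, recessive changes in this gene cause a distal muscle disease, and in mice some Gne mutants develop kidney disease, and the coat of the podocytes, the filter cells of the glomerulus, carries sialylated proteins such as podocalyxin. Skeletal muscle genes are not part of the kidney's usual program. The contractile genes (actin, myosin, troponin, titin, nebulin) and the genes of calcium release and phosphocreatine energy supply are switched on together in striated muscle. They were set apart from the remaining genes for that reason.

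The substituted codon is shown because it is the difference that defines the groups. It is codon 743 of 753 in an annotated GENCODE transcript, in exon 12 of 12, on the minus strand of chromosome 4, and is printed here in capitals within 63 bases of the reference sequence, chr4:44037121-44037183 of GRCm38. The deposited counts do not show which base a mouse carried.
Gne codon 743: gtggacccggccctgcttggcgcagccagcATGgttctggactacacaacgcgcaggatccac

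Total counts were 13189478 to 19493856 in wild-type and 18191087 to 21925419 in healthy knock-in libraries. The unit of all levels is CPM, that is, counts relative to TMM-adjusted library size, and a count of 0 in 1 library allows up to 3 counts, or 0.157 to 0.260 CPM among these 8 libraries. Kidney markers were present in all 8: the summed level of 21 proximal tubule genes was 25862 to 32309 CPM in wild-type and 26331 to 38190 CPM in healthy knock-in mice. A few libraries stood apart. In wild-type mouse 2, 237 genes lay more than 2.5 times below the lowest of the other 7 libraries, against 7 or fewer in each of those 7, and Kap and mt-Atp6 were at 0 CPM there against 20068 to 29317 and 17662 to 22321 CPM elsewhere. In healthy knock-in mouse 4, 38 genes lay more than 2.5 times above the highest of the others, among them the stress and fasting genes Igfbp1, Sesn2 and Angptl4, and in healthy knock-in mouse 3 the 15 such genes included the uroplakins. Results that rest on these libraries are given with and without them.

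Few genes separated the groups. With edgeR's quasi-likelihood test and Benjamini-Hochberg adjustment over all 15589 genes, 49 genes passed an adjusted p of 0.05 (0.314%), 48 of them higher (0.308%) and 1 lower (0.00641%) in healthy knock-in mice. At an unadjusted p under 0.05 there were 700 (4.49%), 494 higher and 206 lower. In sick knock-in mice 7933 genes (50.9%) passed against the same wild-type controls. The 4 healthy libraries lay all above or all below the 4 wild-type libraries in 619 genes (3.97%), and in all 49 that passed. All 4 healthy libraries lay above in 339 (2.17%) and below in 280 (1.8%). The median log2 fold change over all genes was -0.01, which the scaling centres near 0, and the median SE was 0.23. The smallest change that passed was 1.55 on the log2 scale.

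**Figure D1:**
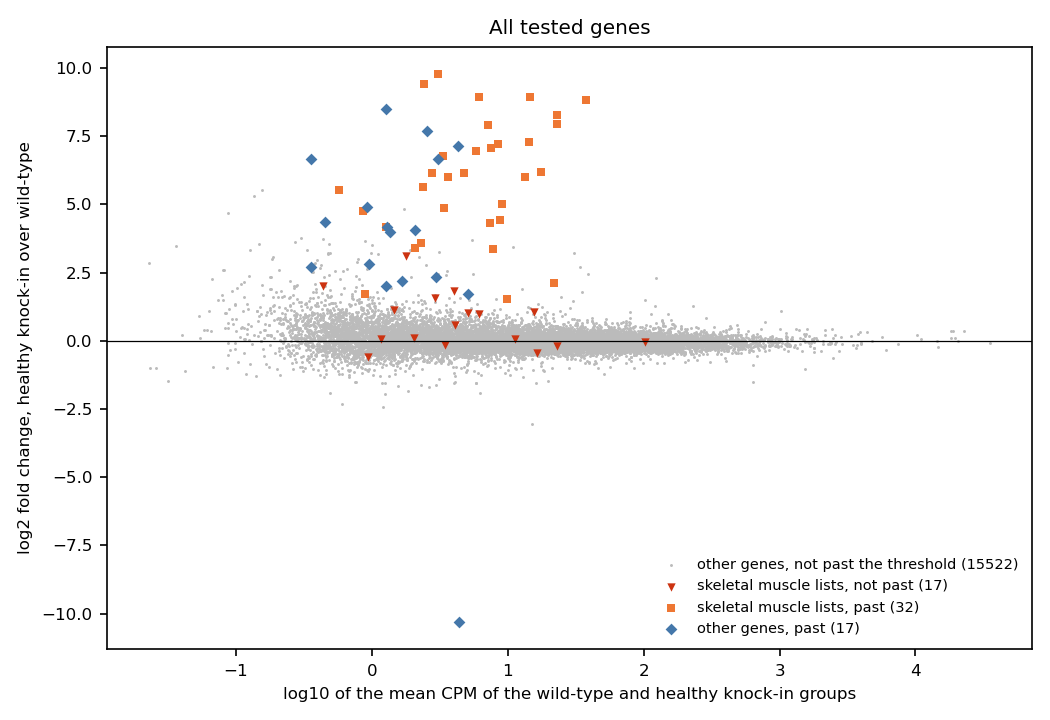
Each point is 1 tested gene, with its mean level in the 2 groups (log10 CPM) on the horizontal axis and its log2 fold change, healthy knock-in over wild-type, on the vertical axis. The genes that passed are the 32 skeletal muscle genes (orange squares) and 17 others (blue diamonds), of which 1 lies below 0. Values of genes with no count in 1 group depend on the count added by the fit, and 1 gene with no count in the 8 libraries is not drawn.

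Skeletal muscle genes made up most of the calls. The 2 lists, contraction and calcium and energy, name 58 genes, of which 49 had enough counts to be tested. Of these, 32 rose (65.3%) and none fell, beside 17 of the 15540 remaining genes (0.109%). At an unadjusted p under 0.05 there were 39 of the 49 and 661 of the remaining genes (4.25%). The lists entered the test partly through the group in which they are high, and were chosen with earlier results in view, so the shares are a description. The median log2 fold change was 4.32 over the 49, also with the 2 genes that had no wild-type count set at their lower bound. The 32 genes lie on 12 chromosomes. Of them, Klhl41 and Ampd1 lost their calls in 7 and 4 of the 8 single-mouse omissions.

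In the contraction list, 22 of 27 tested genes rose, with the list's median at a log2 fold change of 5.62. Acta1, the actin of the skeletal muscle thin filament (chr8:123891769-123894751), stood at 0.0809, 0.0589, 0 and 0.457 CPM in wild-type mice 1 to 4 and at 68.1, 66.1, 67.4 and 102 CPM in healthy knock-in mice 1 to 4. All 4 knock-in libraries were far above every wild-type library. The log2 fold change of Acta1 was 8.83 ± 0.64 (SE, adjusted p = 2.43e-05, edgeR), over group means of 0.149 ± 0.208 and 75.8 ± 17.2 CPM (SD, n = 4 each).

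The smallest p-value belonged to Neb, nebulin, the giant ruler protein of the thin filament. Its levels were 0.324, 0.531, 0.607 and 0.652 CPM in wild-type and 17.8, 14.1, 14.99 and 23.4 CPM in healthy knock-in mice, a log2 fold change of 5.03 ± 0.27 (adjusted p = 1.99e-06, edgeR). Ttn, titin, which spans the half-sarcomere, was at 0.236 to 0.652 CPM in wild-type and 28.6 to 46.3 CPM in healthy knock-in mice. Neither gene's groups overlapped.

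Of the myosin heavy chains, those of fast fibres rose. Myh4, the heavy chain of the fastest fibres, had no count in wild-type mice 1 to 3 and 0.522 CPM in mouse 4, against 41.9, 34.1, 42.3 and 64.2 CPM in healthy knock-in mice (log2 fold change 8.27 ± 1.18, adjusted p = 0.0044, edgeR). Myh1, of the intermediate fast type, was at 0.0652 to 0.884 CPM in wild-type and 21.1 to 35.0 CPM in healthy knock-in mice. Myh2, of fast oxidative fibres, had no count in any wild-type library and 4.52 to 8.69 CPM in healthy knock-in mice, at least 115-fold more if up to 3 wild-type counts are allowed for in all. Per kilobase of exon the healthy knock-in means were 7.59 CPM for Myh4, 4.16 for Myh1 and 0.857 for Myh2. The 3 genes are neighbours on chromosome 11 and close in sequence, so reads may be split among them.

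Genes of slow fibres gave a mixed picture. Mybpc1, the slow-type myosin-binding protein C, rose, from 0.0652 to 0.177 CPM in wild-type to 5.35 to 9.99 CPM in healthy knock-in mice (adjusted p = 8.78e-05, edgeR). Other slow-fibre genes of the contraction list, singled out after their values were seen, did not. Myh7, the slow heavy chain, had 4 counts over the wild-type and 6 over the healthy knock-in group, and Tnni1, slow troponin I, had 4 and 1, too few to be tested. Tnnt1, slow troponin T, was at 0.607 to 1.83 CPM in wild-type and 0.397 to 1.15 CPM in healthy knock-in mice, overlapping ranges (adjusted p = 0.912, edgeR). The fast troponins passed: Tnni2 was at 0 to 0.261 CPM in wild-type and 12.2 to 22.9 CPM in healthy knock-in mice, and Tnnt3 at 0.0809 to 0.391 and 22.6 to 36.9 CPM. Tnnc2, fast troponin C, had 3 counts over the wild-type group and 1002 over the healthy group, a ratio of 269 with an exact 95% counting interval of 91.6 to 1305.

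A few genes of developing or regenerating muscle, looked up after the lists were read, were near 0 in both groups. They do not stand for all genes of that kind. Actc1 and H19, described below, were not among them and rose. Myh3, the embryonic heavy chain, had 2 counts over the wild-type and 6 over the healthy knock-in group. The muscle-forming factors Myog and Myod1 had none over the wild-type group, and 0 and 2 over the healthy knock-in group. Pax7, of muscle stem cells, had 0 and 2. Other myosin genes also looked up were Myl2, Myl3 and Myh6. The ventricular light chain Myl2 had no count in any of the 8 libraries. Myl3 had 7 counts over the wild-type and 17 over the healthy knock-in group, and Myh6 had 29 and 19.

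The promoters of 3 abundant muscle genes are shown because these genes moved together. They are RefSeq windows of 300 bases, from 250 before to 50 after the start, in GRCm38.p6, written along the gene's own strand: Acta1 at chr8:123894726-123895025 (minus), Ckm at chr7:19410844-19411143 (plus) and Tnnc2 at chr2:164779685-164779984 (minus). Capitals mark the E-box CANNTG, which muscle-forming factors of the MyoD family bind, the letters TATAAA and the CArG box of serum response factor.
Acta1 promoter: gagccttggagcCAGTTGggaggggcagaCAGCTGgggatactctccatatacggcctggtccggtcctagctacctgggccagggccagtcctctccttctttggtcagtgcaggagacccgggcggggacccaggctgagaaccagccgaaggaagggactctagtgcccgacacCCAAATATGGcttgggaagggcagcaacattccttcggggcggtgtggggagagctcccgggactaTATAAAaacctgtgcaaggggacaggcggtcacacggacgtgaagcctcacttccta
Ckm promoter: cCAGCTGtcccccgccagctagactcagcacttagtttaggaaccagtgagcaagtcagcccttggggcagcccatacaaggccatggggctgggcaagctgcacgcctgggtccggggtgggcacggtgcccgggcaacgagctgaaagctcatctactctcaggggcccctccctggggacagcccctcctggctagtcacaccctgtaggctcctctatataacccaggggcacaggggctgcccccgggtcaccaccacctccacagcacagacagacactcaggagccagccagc
Tnnc2 promoter: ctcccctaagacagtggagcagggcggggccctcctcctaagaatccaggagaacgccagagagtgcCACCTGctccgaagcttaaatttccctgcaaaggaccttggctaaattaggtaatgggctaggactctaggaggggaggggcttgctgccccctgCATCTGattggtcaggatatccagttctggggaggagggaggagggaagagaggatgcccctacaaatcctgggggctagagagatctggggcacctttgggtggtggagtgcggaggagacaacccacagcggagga

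Of the 32 muscle genes that rose, 22 matched the promoter table. On either strand, the E-box form CAGCTG, one of the forms of CANNTG, was present in 14 of these 22 (63.6%), beside 18.3% of all 27025 genes in the table. Any CANNTG was present in 86.4% and 75.0%. The MEF2 motif, which can overlap TATAAA, was present in 22.7% and 3.7%, the CArG box in 9.1% and 1.8%, and TATAAA in 22.7% and 15.7%. These are matches of letters and are given as a description.

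**Figure D2:**
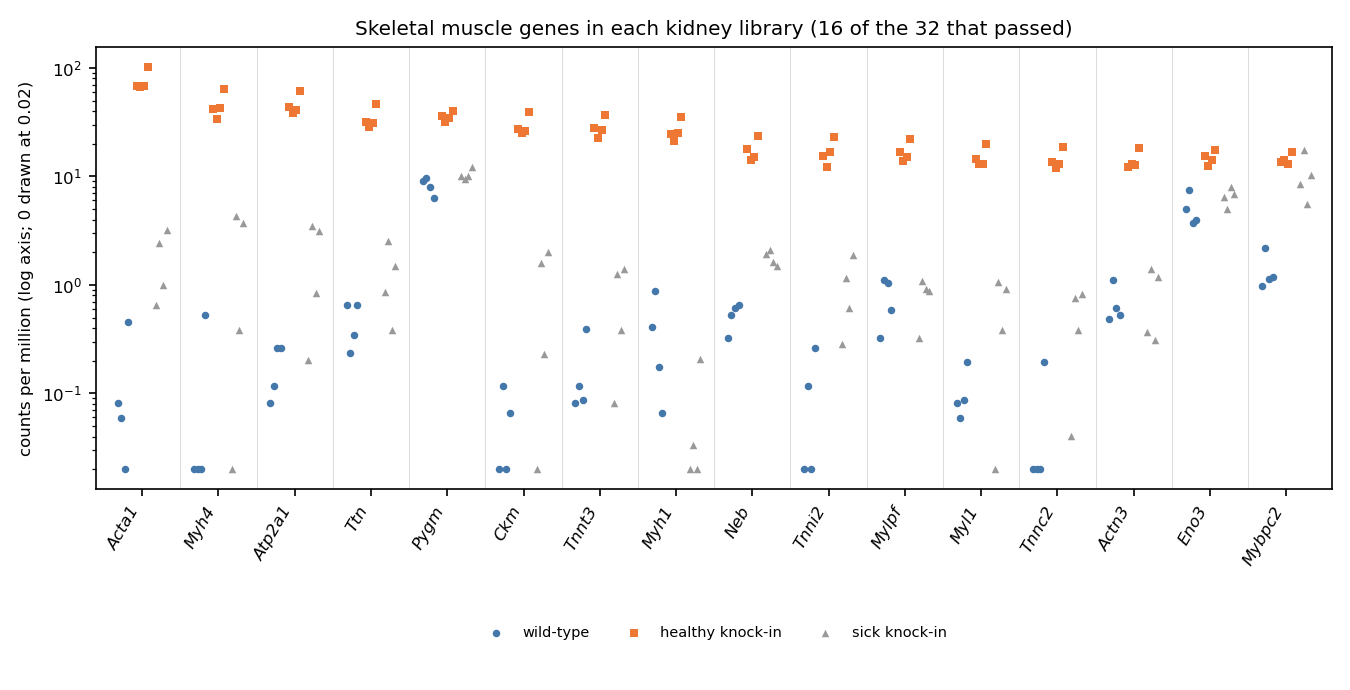
Levels in CPM (log axis, 0 drawn at 0.02) of the 16 most abundant of the 32 muscle genes that rose. Each symbol is 1 mouse: wild-type circles, healthy knock-in squares, sick knock-in triangles. For each gene all 4 healthy knock-in squares lie above all 4 wild-type circles, and for all but Mybpc2 above the sick knock-in triangles.

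Of the calcium and energy list, 10 of 22 tested genes rose. The list's median log2 fold change was 1.79. Ckm, muscle creatine kinase, had 0, 0.118, 0 and 0.0652 CPM in wild-type and 27.2, 25.1, 26.0 and 38.8 CPM in healthy knock-in mice, a ratio of 548 (counting interval 187 to 2660). Mb, myoglobin, which stores oxygen in muscle, had 1 count over the wild-type group and 10.2 to 16.5 CPM in healthy knock-in mice. Atp2a1, the calcium pump of the fast-fibre sarcoplasmic reticulum, was at 0.0809 to 0.261 and 38.3 to 61.0 CPM. Its groups, like those of Ckm and Mb, lay far apart.

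The calcium release genes rose as well. Ryr1, the release channel, was at 0.0589 to 0.173 CPM in wild-type and 8.13 to 12.5 CPM in healthy knock-in mice. Casq1, which stores calcium in the reticulum, was at 0.0589 to 0.347 and 5.72 to 7.55 CPM, and Cacna1s, the voltage sensor, at 0.0589 to 0.173 and 1.99 to 2.80 CPM. Pygm, muscle glycogen phosphorylase, was already present in wild-type kidney, at 8.98, 9.61, 8.06 and 6.33 CPM, and reached 35.8, 31.5, 34.4 and 40.1 CPM in healthy knock-in mice (log2 fold change 2.10 ± 0.16, adjusted p = 2.85e-05, edgeR).

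The 17 tested members that did not pass were mostly those that wild-type kidney already held. Sypl2, a membrane protein of the muscle triad, was at 95.9 to 107 CPM in wild-type and 71.1 to 121 CPM in healthy knock-in mice. Pgam2, a glycolytic enzyme, was at 13.6 to 40.1 and 17.9 to 25.8 CPM, and Trim63, a muscle ubiquitin ligase, at 10.8 to 31.95 and 10.5 to 16.4 CPM. The ranges of all 3 overlapped. Ldb3, of the Z-disc, was close to the threshold, at 1.17 to 2.25 and 6.19 to 6.51 CPM without overlap (log2 fold change 1.83 ± 0.35, adjusted p = 0.0573, edgeR), and DESeq2 and limma-voom each called it. The 8 libraries alone called it too. Myom2 of the M-band, at 8.09 to 14.2 and 16.4 to 26.2 CPM, had an adjusted p of 0.308 by edgeR and 0.0286 by DESeq2, which also called Srl, Hspb7 and Apobec2. The other 9 members had too few counts, with Sln at 0 throughout.

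Among the healthy knock-in mice the muscle genes varied together. Mouse 4 was above the mean of the other 3 in 31 of the 32 genes, by a median of 1.49 times (range 0.945 to 1.72). The summed level of the contraction list was 378, 337, 365 and 531 CPM in healthy knock-in mice 1 to 4, against 21.1 to 25.5 CPM in wild-type mice. Both lists together took 0.0601% to 0.0762% of all counts in healthy knock-in and 0.0144% to 0.0224% in wild-type libraries. The wild-type share includes Sypl2, Pgam2 and Trim63, which wild-type kidney already held and which did not rise. In bulk tissue more cells of a type and more RNA per cell cannot be told apart, and whether the kidney samples differed in attached muscle was not tested. Among lists of other tissues that lie against or within the kidney, summed adipose levels were 101 to 154 CPM in wild-type and 73.6 to 114 CPM in healthy knock-in mice, and adrenal levels 2.81 to 5.99 and 3.09 to 4.72 CPM. Neither differed in the direction of the muscle lists, and both overlapped. Smooth muscle genes summed to 386 to 420 CPM in wild-type and 427 to 682 CPM in healthy knock-in mice without overlap, and none of the 10 passed in edgeR, in DESeq2 or in limma-voom, or at an unadjusted p under 0.05.

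Sick mice of the same genotype lacked most of this signal without matching the wild-type level. Their contraction list summed to 35.8, 74.0, 35.4 and 76.0 CPM, above the 21.1 to 25.5 CPM of wild-type mice. Their calcium and energy list summed to 71.9 to 118 CPM, below the 150 to 232 CPM of wild-type mice. Much of that wild-type sum was Sypl2, which did not rise in healthy mice. Sypl2 was at 95.9 to 107 CPM in wild-type and 7.87 to 18.4 CPM in sick mice. Of the 32 genes that rose in healthy mice, the sick mean was above the wild-type mean in 26 and below it in 6. In 30 of the 32 genes all 4 sick libraries lay below all 4 healthy ones, which was so for 23.2% of all tested genes. The 32 genes were picked as high in these healthy libraries, which favours that order, so the shares are only a description. Acta1 was at 0.649, 2.46, 0.998 and 3.19 CPM and Myh4 at 0, 4.28, 0.384 and 3.70 CPM in sick mice 1 to 4. Mybpc2, a myosin-binding protein of fast fibres, overlapped between the knock-in groups: 0.971 to 2.18 CPM in wild-type, 12.9 to 16.7 CPM in healthy and 5.60 to 17.3 CPM in sick mice. The healthy and the sick comparison share the wild-type libraries.

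Outside the 2 lists, 16 genes rose and 1 fell. Several of the 16 are known from striated muscle. Actc1, the cardiac actin, had 1 count over the wild-type group and 5.66, 3.83, 5.09 and 5.79 CPM in healthy knock-in mice, with at most 0.0767 CPM in sick mice. Its sequence is close to that of Acta1, so some of its counts may be shared. Eef1a2, the elongation factor form of muscle and nerve, had no wild-type count and 2.03 to 3.52 CPM in healthy knock-in mice, at least 47.7-fold higher. Smyd1, a methyltransferase of striated muscle, was at 0.162 to 0.354 and 3.15 to 4.71 CPM, and Ankrd23, which binds titin, at 1.70 to 2.83 and 7.12 to 8.23 CPM.

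Further muscle-linked genes also rose. Flnc, the filamin of muscle, was at 0.647 to 1.47 CPM in wild-type, 3.81 to 7.10 CPM in healthy and 7.52 to 16.3 CPM in sick knock-in mice, so it was highest in the sick mice. Hrc, a calcium-binding protein of the sarcoplasmic reticulum, was at 0.354 to 0.647 and 1.77 to 2.16 CPM. Mylk4, a myosin light chain kinase, and Txlnb, a taxilin, had adjusted p-values of 0.02 and 0.0402 by edgeR, and leaving out single mice ended the call in 6 of 8 and 7 of 8 omissions, with adjusted p-values of up to 0.101 and 0.18. H19, an imprinted non-coding RNA, was at 0.0652 to 0.295 and 1.89 to 2.86 CPM (adjusted p = 0.0178, edgeR), and 6 of the 8 single libraries each ended its call when left out. Gm12300 is annotated as antisense to Myh1, and since the sources do not state that counting used strand, its 1.43 to 2.10 CPM in healthy knock-in mice cannot be told apart from reads of Myh1.

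The other genes that rose are described next, and this order does not set them apart from muscle. Spon2, a secreted matrix protein, had 0, 0, 0 and 0.196 CPM in wild-type and 6.23, 7.82, 4.29 and 5.91 CPM in healthy knock-in mice, a ratio of 114 (counting interval 38.8 to 556), and stood at 0.930 to 2.31 CPM in sick mice. Here mouse 4 was not the highest of the healthy mice. Epha6, an ephrin receptor, had 2 counts over the wild-type group and 0.630 to 1.27 CPM in healthy knock-in mice, highest in mouse 1. A930016O22Rik had 3 counts and 7.56 to 10.5 CPM, but it lies wholly within Ckm on the opposite strand, so its reads cannot be told apart from those of Ckm. Ptprv, a receptor phosphatase, was at 0.236 to 0.890, 2.003 to 3.58 and 3.99 to 5.34 CPM in wild-type, healthy and sick mice (adjusted p = 0.0151, edgeR), and lost its call without wild-type mouse 4 (0.0758), healthy mouse 2 (0.0502) or healthy mouse 4 (0.0619). Mlf1 and 3425401B19Rik, both at 0.738 CPM or less in every healthy library, lost their calls in 6 and in all 8 of the single-library omissions. Over the 16 genes, healthy mouse 4 was above the mean of the other 3 in 14, by a median of 1.25 times.

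**Figure D3:**
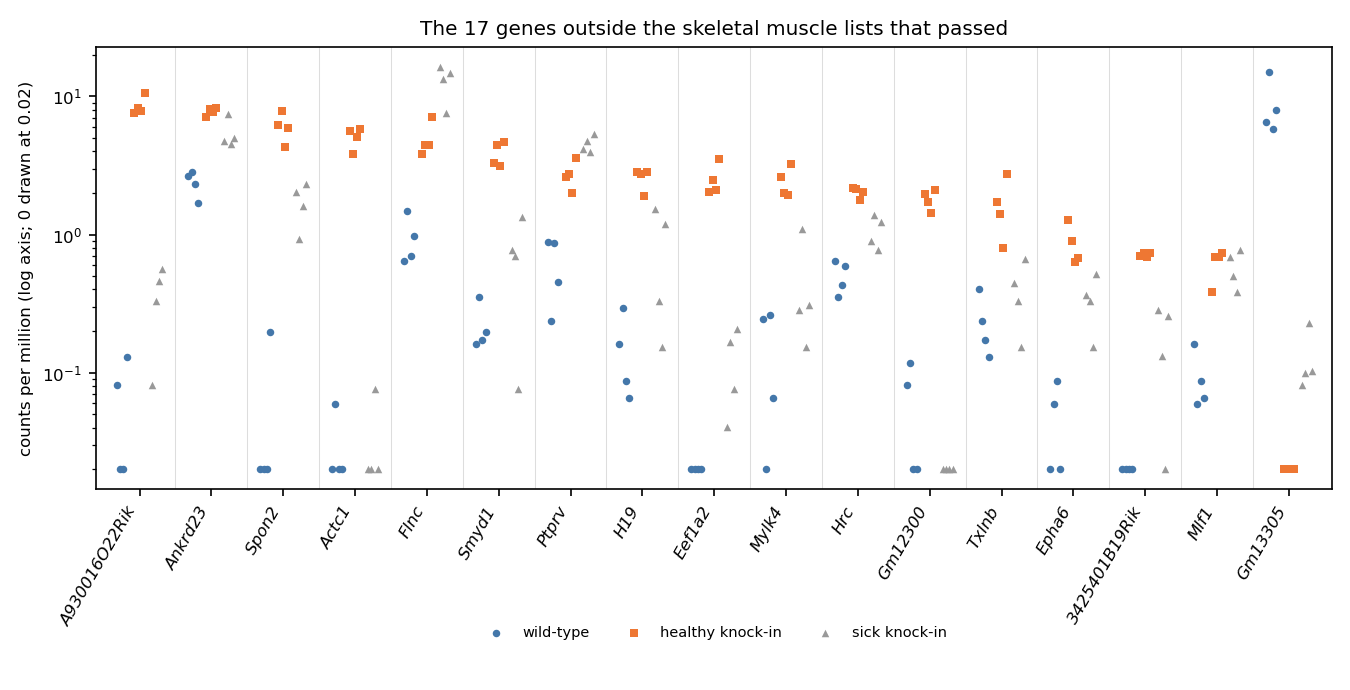
Levels in CPM (log axis, 0 drawn at 0.02) of the 17 genes outside the skeletal muscle lists that passed, with 1 symbol per mouse. In 16 genes the healthy knock-in squares lie above the wild-type circles, while for Gm13305 at the right all 4 squares are at 0. The sick knock-in triangles of Flnc and Ptprv lie above the healthy squares.

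The gene that fell lies near Gne. Gm13305 (chr4:42158842-42168603, minus strand) is annotated 1.90 Mb from Gne. It had 80, 253, 67 and 123 counts in wild-type mice 1 to 4, or 8.80 ± 4.18 CPM (SD, n = 4), and no count in any healthy knock-in mouse, at least 217-fold lower if up to 3 counts are allowed for in all 4 together (adjusted p = 8.07e-05, edgeR). Sick mice of the same genotype had 2, 3, 3 and 2 counts. One annotated transcript of 1953 bases matches one of Il11ra1, an interleukin 11 receptor gene on the same chromosome, at 98.9% of bases over the full length, and one of Il11ra2 at every one of 1299 bases. Its counts are therefore uncertain as a measure of 1 gene. Il11ra1 itself was at 23.4 to 48.2 CPM in wild-type and 28.3 to 31.7 CPM in healthy knock-in mice (log2 fold change -0.02 ± 0.22), and Il11ra2 had no count in any library.

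Other neighbours of Gne were shifted without passing. Of 220 tested genes within 20 Mb, Gm13305 included, 29 had an unadjusted p under 0.05 (13.2%), beside 4.37% of all other tested genes. Between the groups, 11.4% of the 220 did not overlap, beside 3.86% of all other tested genes. Of the 29, 18 were higher and 11 lower. The rest of chromosome 4 had 4.58% with an unadjusted p under 0.05. Atp8b5, a phospholipid flippase gene 0.739 Mb from Gne, was at 2.75, 4.19, 2.34 and 2.35 CPM in wild-type and 0.763, 1.15, 0.858 and 0.454 CPM in healthy knock-in mice, with sick mice at 0.664 to 1.38 CPM. The groups did not overlap (log2 fold change -1.84 ± 0.35, adjusted p = 0.0557, edgeR), and DESeq2 and limma-voom each called it.

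Npr2, a natriuretic peptide receptor gene 0.418 Mb from Gne, was at 40.4 to 51.3 CPM in wild-type and 16.6 to 36.1 CPM in healthy knock-in mice (adjusted p = 0.305, edgeR). Tstd2 was at 36.9 to 60.02 and 25.2 to 32.3 CPM (adjusted p = 0.187, edgeR). Plekhf2, farther along the chromosome and outside the 20 Mb, was at 52.5 to 62.4 and 38.7 to 44.7 CPM (adjusted p = 0.305, edgeR). Vcp, an ATPase that unfolds ubiquitinated proteins, went the other way, at 172 to 252 and 270 to 303 CPM (adjusted p = 0.488, edgeR). DESeq2 called Npr2 (adjusted p = 0.0393), Tstd2 (0.0148) and Plekhf2 (0.00396), and limma-voom called Tstd2 (0.0495), Plekhf2 (0.0091) and Vcp (0.000566). Also within the 20 Mb, limma-voom called Tpm2 (log2 fold change 1.37, adjusted p = 0.0196) and 4933421O10Rik (0.78, adjusted p = 0.0425), both higher. Without wild-type mouse 2, edgeR also called Vcp (0.0407). Npr2, Tstd2, Plekhf2 and Vcp did not overlap between the groups. A stretch of chromosome 4 inherited with the knock-in allele and an effect of the allele itself cannot be told apart here.

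**Figure D4:**
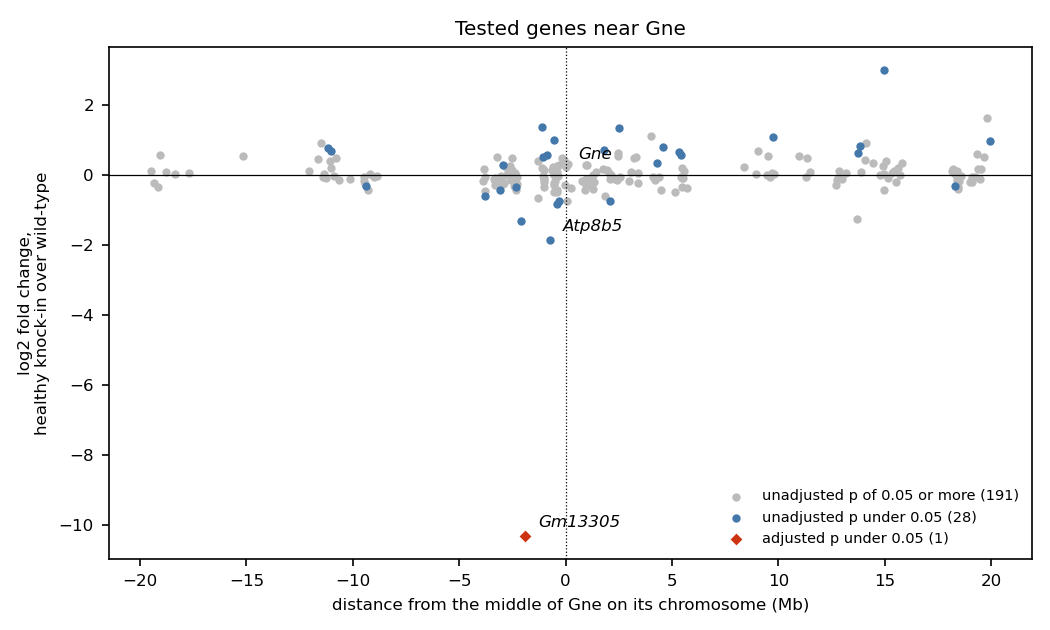
Each point is 1 of the 220 tested genes within 20 Mb of Gne, with its distance from the middle of Gne (Mb) on the horizontal axis and its log2 fold change, healthy knock-in over wild-type, on the vertical axis. The 28 blue points have an unadjusted p under 0.05 only, and the red diamond is Gm13305, the 1 gene that passed, whose value depends on the count added by the fit.

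The Gne transcript itself did not pass. It stood at 37.7, 39.5, 37.0 and 43.0 CPM in wild-type mice and at 39.9, 32.8, 36.2 and 76.9 CPM in healthy knock-in mice. Healthy mice 2 and 3 lay below the wild-type range and mouse 4 far above it. The log2 fold change was 0.24 ± 0.22 (adjusted p = 0.912, edgeR), and -0.12 without healthy mouse 4. Sick mice were at 25.5 to 30.2 CPM. Of the 13 tested genes that make, activate or carry sialic acid none passed, their median log2 fold change was -0.04, and 1 had an unadjusted p under 0.05. That gene was Slc35a1, the Golgi carrier of CMP-sialic acid, which is also 1 of the 29 genes near Gne with such a p. It was at 39.8 to 47.7 CPM in wild-type and 32.6 to 37.6 CPM in healthy knock-in mice (log2 fold change -0.29 ± 0.11, adjusted p = 0.912, edgeR). Npl, which breaks sialic acid down, was at 27.6 to 41.7 and 38.6 to 48.4 CPM, overlapping. Of 17 sialyltransferases none passed, with a median of 0.10 and 1 at an unadjusted p under 0.05. DESeq2 and limma-voom called no gene of either list.

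No gene of the other kidney lists passed either. Over the 47 lists outside skeletal muscle, 706 distinct genes were tested and edgeR called none. Of these 706, 47 had an unadjusted p under 0.05 (6.66%, 42 higher and 5 lower), and DESeq2 and limma-voom called 5 each. List medians lay within 0.5 of 0 on the log2 scale in 42 of the 47.

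Podocyte genes, those of the filter cells, did not pass in edgeR. All 18 tested had a log2 fold change above 0, beside 48.5% of all tested genes, with a median of 0.21, and 14 of the 18 did so under limma-voom with sample weights. Synpo, an actin organiser of the foot process, was at 40.5 to 53.7 CPM in wild-type and 51.6 to 78.8 CPM in healthy knock-in mice. Nphs1, nephrin, was at 15.03 to 21.9 and 21.9 to 30.9 CPM, and Podxl, podocalyxin, the sialylated coat protein, at 157 to 271 and 206 to 267 CPM. The ranges of these 3 overlapped.

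No tubule gene passed in edgeR. Of 21 proximal tubule genes none passed or had an unadjusted p under 0.05, in edgeR, and neither DESeq2 nor limma-voom called one, with a median of 0.07. Lrp2, megalin, which takes up filtered protein, was at 1630 to 4274 CPM in wild-type and 3260 to 3884 CPM in healthy knock-in mice, and Slc34a1, the phosphate carrier, at 4927 to 6121 and 4339 to 7203 CPM. In sick mice they were at 358 to 551 and 435 to 1116 CPM. Umod, uromodulin of the thick ascending limb, was at 2562 to 3657 CPM in wild-type mice and 1428, 3181, 3861 and 1115 CPM in healthy knock-in mice, so mice 1 and 4 were low. The 13 genes of that limb had a median of -0.36, 1 was above 0, and none had an unadjusted p under 0.05. Of 13 genes of the distal convoluted and connecting tubule, 3 were above 0, the median was -0.22, and 1 higher and 2 lower genes had an unadjusted p under 0.05. The higher one was Pvalb, parvalbumin, at 36.7 to 88.4 CPM in wild-type and 76.8 to 113 CPM in healthy knock-in mice. Its ranges overlapped (adjusted p = 0.912 by edgeR and 0.00323 by limma-voom). Pvalb was highest in healthy mouse 4, and membership in this list does not set it apart from skeletal muscle.

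Of the kidney lists, tubular injury had the most members at an unadjusted p under 0.05, and none passed. Of 24 injury genes 9 were higher at that level, beside 3.17% of all tested genes, with a median log2 fold change of 0.53, and 0.27 without healthy mouse 4. Krt19, a keratin of injured tubule, was at 1.21, 3.01, 0.693 and 1.76 CPM in wild-type and 5.08, 4.04, 14.8 and 13.7 CPM in healthy knock-in mice (log2 fold change 2.44 ± 0.48, adjusted p = 0.0665, edgeR), with 69.6 to 117 CPM in sick mice. The groups did not overlap, and DESeq2, library totals alone and no filter each gave an adjusted p under 0.05. Krt20 was highest in healthy mouse 4, at 4.997 CPM against 0.577 to 1.32 in the other healthy mice and 0.0652 to 0.405 in wild-type mice. Vim, vimentin, was at 38.9 to 59.9 and 69.5 to 85.2 CPM without overlap (adjusted p = 0.405 by edgeR and 0.00462 by limma-voom).

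The classical injury markers overlapped. Havcr1, kidney injury molecule, was at 15.4 to 45.1 CPM in wild-type and 13.4 to 50.8 CPM in healthy knock-in mice. Lcn2, the neutrophil gelatinase lipocalin, was at 1.78 to 5.25 and 3.43 to 7.67 CPM, beside 228 to 391 CPM in sick mice. Of 24 matrix genes 4 had an unadjusted p under 0.05, with a median of 0.36. Col1a1, the main fibrillar collagen, was at 30.7 to 80.2 and 26.2 to 144 CPM, and Mmp14, a membrane metalloproteinase, at 6.33 to 8.74 and 9.20 to 15.6 CPM (adjusted p = 0.912, edgeR). Macrophage and T and NK cell lists had medians of 0.41 and 0.68 and 1 gene each at an unadjusted p under 0.05, Laptm5 at 8.06 to 19.4 and 16.5 to 25.4 CPM and Cd3e at 0.173 to 0.718 and 0.511 to 1.95 CPM. DESeq2 and limma-voom called no gene of the matrix, macrophage or lymphocyte lists. C7, a late complement component, was at 3.16 to 5.95 and 8.26 to 22.1 CPM without overlap (adjusted p = 0.111 by edgeR, 0.00169 by DESeq2 and 0.0495 by limma-voom).

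**Figure D5:**
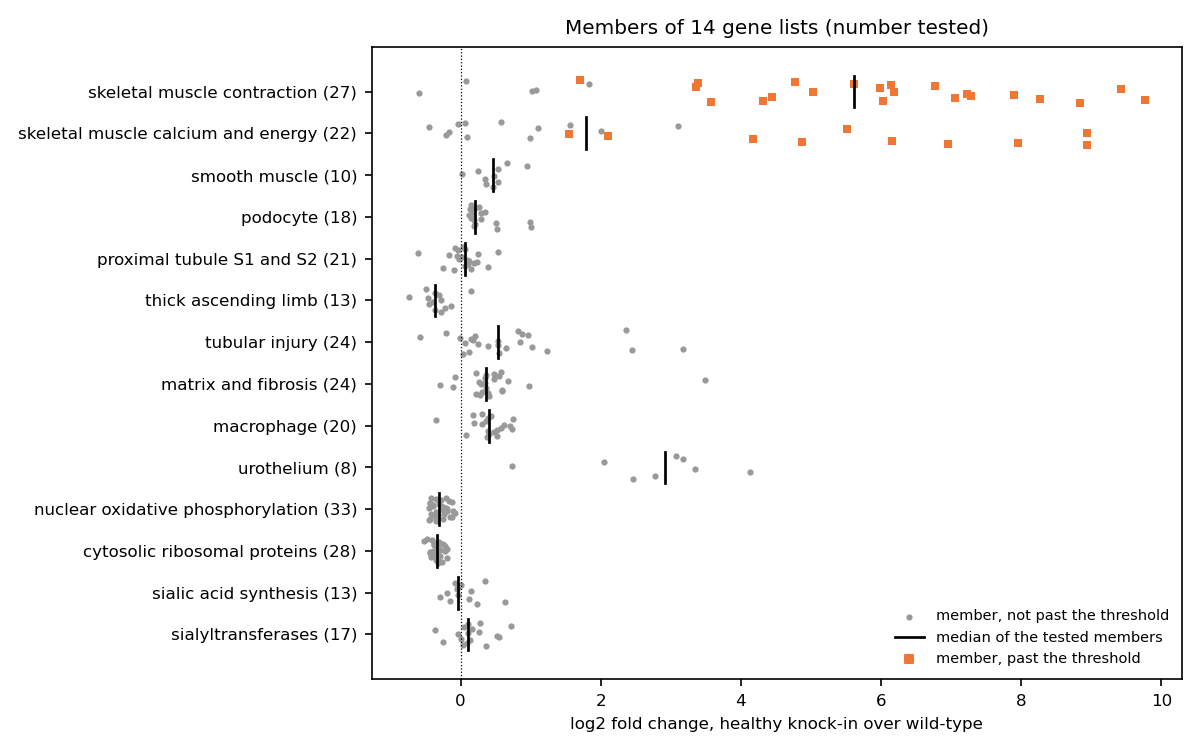
Log2 fold change, healthy knock-in over wild-type, of each tested member of 14 gene lists, with the number tested in brackets and the list median as a black bar. Orange squares are members that passed. Both skeletal muscle lists reach far to the right, and no member of the other 12 lists passed.

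Some list medians rested on 1 library. The 33 nuclear genes of oxidative phosphorylation and the 28 cytosolic ribosomal protein genes were all below 0, with medians of -0.31 and -0.34, and stayed below 0 with DESeq2 size factors, library totals alone and TMM without the muscle genes. Without wild-type mouse 2 the medians were -0.04 and -0.05, with 9 and 10 genes above 0, and under limma-voom with sample weights they were -0.09 and -0.06. In that mouse Cox6c of complex IV was at 424 CPM against 215 to 250 in the other wild-type mice, and Rpl23 at 386 CPM against 219 to 238. The urothelial list, genes of the lining of pelvis and ureter, had a median of 2.92, which was 0.12 without healthy mouse 3. Its summed level in healthy knock-in mice was 4.51, 9.34, 83.8 and 8.63 CPM, beside 2.86 to 7.72 CPM in wild-type mice. No gene of these 3 lists passed in edgeR, 5 urothelial genes and none of the other 2 lists had an unadjusted p under 0.05, and of DESeq2 and limma-voom only DESeq2 called 1, Krt20.

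Some large differences did not pass in the 12-library fit. Moxd1, with log2 fold changes of 3.65 to 3.77, was called by the 8 libraries alone, the replicate block and DESeq2. Ptgs2, with log2 fold changes of 3.15 to 4.07, was called with library totals alone, with no filter, by DESeq2 and without wild-type mouse 1. Atp4a, the catalytic subunit of the gastric-type proton pump, which the collecting duct also uses, was at 30.6, 35.7, 29.3 and 11.4 CPM in wild-type and 3.11, 3.15, 3.15 and 3.63 CPM in healthy knock-in mice. The groups did not overlap, and the healthy libraries were nearly equal to each other. The log2 fold change was -3.03 ± 0.69 with an adjusted p of 0.18 by edgeR, and the 8 libraries alone, DESeq2 and limma-voom gave 0.00143, 0.00108 and 0.00297. Sick mice were at 0.284 to 6.83 CPM. These 3 genes were singled out after their values were seen.

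The authors' deposited table gave a similar set. It held 50 genes with an adjusted p under 0.05 of 20711 (0.241%), 49 higher and 1 lower in healthy knock-in mice, and 44 of the 50 also passed here. In the authors' deposited table Acta1 had a log2 fold change of 7.59 with an SE of 0.486, Neb 4.797 with an SE of 0.315, and Gm13305 -6.86 with an SE of 0.593. The 6 genes that passed only in the authors' deposited table were Moxd1, Krt19, Csrp3, Art1, Abra and Cmya5, with log2 fold changes of 2.20 to 3.46. Csrp3, Art1, Abra and Cmya5 are known from striated muscle.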

How the data were processed

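Total RNA of 12 mouse kidneys was sequenced, and the deposited table holds 1 column of raw read counts per library and gene. Per the submitters' processing notes, reads were handled with TopHat2 2.0.11, Trim Galore 0.3.7, DESeq2 1.12.4 and Cufflinks on GRCm38. No label or header names the counter, its annotation or the strand of the kit. The authors' deposited table also holds a log2 fold change, SE and adjusted p-value for each comparison, and 12 columns of the authors' normalized counts were not used.

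Genes were filtered with filterByExpr by group, scaled by TMM and tested with edgeR 4.0.16 (R 4.3.3), quasi-likelihood, 1 mean per group over all 12 libraries, which share 1 estimate of spread. P-values were adjusted by Benjamini-Hochberg over 15589 genes at 0.05. Each SE was computed as the absolute log2 fold change divided by the root of F. The mice are separate animals, so p-values measure the spread between mice. Total counts ranged from 13189478 to 21925419 over the 8 libraries compared. Intervals and floors cover counting error only. Alternatives were DESeq2 1.42.0, limma 3.58.1 (voom with sample weights), other scalings, filters and thresholds, a replicate block, a muscle covariate and omitted libraries. The fit was tested on simulated data.

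Group membership came from the labels. Members and gene lists were chosen with earlier results of these data known. Every gene past the threshold could be named, and of other lists the members with the smallest p, besides genes chosen after their values were seen, which include the slow, developmental and neighbouring genes given as values. A planned split of the called genes by correlation with the muscle level is not given, since the 8 libraries form separate clusters. Of the 39171 genes 37605 were matched to GENCODE, and 17210 symbols came from a table of gene names. Promoters are from RefSeq, GRCm38.p6. One gene is not reported here.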

Additional observations from a re-analysis of the deposited data

Results flagged for a closer look

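In some groups of 4 mice 1 library lay far from the other 3, by a test of the gap over the range, which chance passes in about 1 of 20 groups. That rate does not hold near 0: any count in 1 library with the other 3 at 0 always passes. Levels are in CPM.

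Healthy knock-in mouse 4 was high for Acta1 (102, others 66.1 to 68.1), Ckm (38.8, others 25.1 to 27.2), Actn3 (18.2, others 12.3 to 13.02), Ryr1 (12.5, others 8.13 to 8.83) and Myot (6.98, others 3.99 to 4.19), all muscle genes that rose. It was also high for Gne (76.9, others 32.8 to 39.9), Sesn2 (361, others 66.5 to 93.9), Angptl4 (199.8, others 23.1 to 34.6), Igfbp1 (192, others 6.04 to 31.4), Krt20 (4.997, others 0.577 to 1.32) and, by a small margin, Atp4a (3.63, others 3.11 to 3.15). For each of the 5 muscle genes the other 3 healthy mice also lay above every wild-type mouse.

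Healthy knock-in mouse 3 was high for the uroplakin Upk2 (9.90, others 0 to 0.420), for Apobec2 (8.93, others 0.945 to 1.76) and for C7 (22.1, others 8.26 to 9.71), and low for H19 (1.89, others 2.73 to 2.86). Healthy knock-in mouse 1 was low for Mlf1 (0.381, others 0.682 to 0.738) and Srl (7.24, others 8.35 to 8.45).

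In wild-type mouse 2, Cox6c (424, others 215 to 250), Rpl23 (386, others 219 to 238), Rpl37 (93.4, others 46.0 to 49.97), Il11ra1 (48.2, others 23.4 to 27.0) and Mybpc2 (2.18, others 0.971 to 1.17) were high, while Kap and mt-Atp6 were listed at 0 (others 24631 to 29317 and 19924 to 22076). It also held the only wild-type count of Actc1 (0.0589).

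Wild-type mouse 4 was high for Nr4a1 (11.4, others 3.07 to 3.80), Jun (43.8, others 23.1 to 26.4) and Tnnt3 (0.391, others 0.0809 to 0.118). It held the only wild-type counts of Myh4 (0.522), Xirp2 (0.326), Tnnc2 (0.196), Spon2 (0.196) and Ampd1 (0.0652), and wild-type mouse 3 the only one of Mb (0.0867).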

How the results depend on the processing

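The main counts were 49 genes called, 48 higher and 1 lower, 32 in the muscle lists and 17 outside. DESeq2 called 81 (73 higher, 8 lower, 44 outside the muscle lists) and limma-voom 86 (80, 6 and 53), each sharing 48 with edgeR. An adjusted p of 0.01 left 11 outside the lists, and 0.1 gave 27 outside and 3 lower. The 8 libraries alone gave 2 lower, as did leaving out wild-type mouse 2 and healthy mouse 4 together, an alternative chosen after seeing the data. Leaving out single mice gave 42 to 49 called, 41 to 48 higher, 1 to 2 lower, 30 to 32 in the muscle lists and 11 to 19 outside, with 11 without healthy mouse 4. With the muscle level as a covariate all 5 counts were 0 and the lowest adjusted p was 0.397: the muscle level does not overlap between the groups, so covariate and genotype cannot be told apart.

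No pairing by replicate number was assumed. Same-numbered deviations correlated at 0.169, 0.0381, -0.109 and 0.243, and those of differently numbered mice at -0.191 to 0.159. So few values cannot show whether mice were paired. The fit with the replicate block called 44 genes, 42 of them shared. Over 98 genes and all alternatives, 1757 of 1950 values kept direction and side, 116 lost a call (45 with the covariate), 33 gained one and 44 changed direction. Of the 49 genes, 36 passed in every alternative but the covariate.

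Log2 fold changes that changed direction with the covariate were Flnc -0.0554, Eno3 -0.46, Txlnb -1.03, Gne -1.79, Umod 1.76, Slc34a1 -0.34, Havcr1 -1.001, Lcn2 -2.31, Krt20 -4.42, Tstd2 0.66, Npr2 0.85, Vcp -0.28, Sesn2 -3.40, Angptl4 -6.24, Igfbp1 -10.28 and Tnnt1 0.0659. With limma-voom they were Podxl -0.0349, Il11ra1 0.21, Angptl4 -0.60 and Tnnt1 0.0615, and with the replicate block Havcr1 -0.0247, Il11ra1 0.0180 and Angptl4 -0.22. Leaving out wild-type mouse 2 and healthy mouse 4 together gave Gne -0.11, Lrp2 -0.0235, Il11ra1 0.27, Kap -0.10, mt-Atp6 -0.0996, Angptl4 -1.04 and Pgam2 0.0341. Over the single omissions, values ran from -0.0225 to 0.38 for Lrp2, -0.0384 to 0.62 for Kap, -0.0568 to 0.55 for mt-Atp6, -0.41 to 0.13 for Pgam2 and -0.12 to 0.29 for Il11ra1, each reversed without wild-type mouse 2. They ran from -0.12 to 0.39 for Gne and -1.02 to 0.61 for Angptl4, reversed without healthy mouse 4, -0.45 to 0.40 for Havcr1, -0.18 to 0.68 for Col1a1 and -0.12 to 0.10 for Sypl2. Of these genes only Flnc, Eno3 and Txlnb had been called. The cause was not tested. Depth limits genes near 0 in wild-type mice, whose fold changes are bounds or wide intervals.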
